A study of Homo sapiens with 4 samples.

Results

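The RNF genes described here are the rows of the ATRA comparison table whose symbol is RNF followed by a number. There were 6 of them among the 1648 genes of the table: RNF122, RNF141, RNF146, RNF149, RNF166 and RNF213. They were taken by name and not by their values, but every gene in the table had already been selected by the authors on the same contrast, so the ATRA differences below are a description with no test of their own. RNF genes encode RING finger proteins. RefSeq annotates 77 protein-coding genes with such a symbol, and the other 71 are not listed in the table. Of all 20056 protein-coding symbols of RefSeq 7.45% are in the table, so the 6 of 77 are near the share over all genes. Symbols were matched as written for this share and for the gene lists below. Genes listed under an older symbol are missed, so the share may be somewhat too low.

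The cells were HL-60, a human line that the labels assign to acute promyelocytic leukemia and to peripheral blood. ATRA-treated cells received 1 µM all-trans retinoic acid, the vitamin A metabolite that drives HL-60 cells towards granulocytes, dissolved in ethanol, for 4 days. Control cells received the same volume of ethanol over the same 4 days, with fresh medium and a second addition midway in both groups. The poly(A) fraction of the RNA was sequenced in 2 ATRA-treated and 2 control samples. Separate cultures are not stated for these samples, so the spread between them may be technical, and everything here rests on 1 cell line.

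RING finger proteins form the largest class of ubiquitin ligases. Ubiquitin is activated by an E1 enzyme, passed to an E2 enzyme and placed on a substrate with the help of an E3 ligase. A RING ligase holds the substrate and the loaded E2 close together, and its RING domain, folded around zinc ions, is the part that grips the E2. The chain built on a substrate decides whether it goes to the proteasome, to a lysosome or into a signalling complex. In myeloid cells such ligases act in the turnover of receptors and signalling proteins, in autophagy and in the defence against microbes and viruses.

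The values were reads per gene divided by the authors' size factors, called normalised reads here. The table holds means over the libraries of a group. Whole reads of the single libraries were worked out from these means for all 1648 genes, and the libraries of each group are called a and b. Which of them is replicate 1 of the labels is not known. Over the genes of the table the libraries held between 3288055 and 5576516 reads.

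The zinc-binding stretch is what the 6 proteins share, and its coding sequence is shown because it is the part by which they are called RING ligases. Each of the 6 predicted proteins held 1 match to the RING signature, the ordered series of cysteines and histidines with their spacing, in the canonical GENCODE transcript. Among all 19414 translated coding genes 1.43% held a match, as did 74 of 76 translated RNF genes. The lines below run 5′ to 3′ from the codon of the first metal ligand to that of the last. Capitals mark the codons of the metal ligands, and none is given for RNF122 and RNF213.
RNF149: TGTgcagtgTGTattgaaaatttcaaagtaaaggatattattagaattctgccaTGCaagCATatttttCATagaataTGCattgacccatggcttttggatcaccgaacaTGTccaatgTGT
RNF141: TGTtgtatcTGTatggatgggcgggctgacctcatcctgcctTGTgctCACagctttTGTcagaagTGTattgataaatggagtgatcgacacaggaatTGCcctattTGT
RNF146: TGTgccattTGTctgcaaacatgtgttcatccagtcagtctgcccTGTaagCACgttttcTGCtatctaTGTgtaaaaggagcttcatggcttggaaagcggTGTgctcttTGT
RNF166: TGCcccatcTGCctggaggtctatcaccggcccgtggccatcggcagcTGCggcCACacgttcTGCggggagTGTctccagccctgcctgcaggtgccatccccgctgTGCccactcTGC
RNF149 had a histidine codon (CAT) in place of the ligand that follows the first histidine, the form called RING-H2. RNF122 was of the same form, and both RING domains were 41 residues long. The other 4 had a cysteine codon there, the form called RING-HC, over 37 to 40 residues. The domain lay at residues 93 to 133 of 155 in RNF122 and 269 to 309 of 400 in RNF149. It lay at residues 155 to 191 of 230 in RNF141, 37 to 74 of 359 in RNF146 and 33 to 72 of 237 in RNF166.

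Promoter windows of RefSeq, from 250 bases before to 50 bases after a gene start on GRCh38.p14, were given for 5 of the genes (7 windows, none for RNF122) and were searched for fixed motifs on both strands. The retinoid receptor motif AGGTCA occurred in 0 of the 7 windows and in 13.8% of all 35116 windows. The core of the interferon-stimulated response element also occurred in 0 of the 7 and in 3.57% of all. The GC box GGGCGG occurred in windows of RNF141, RNF149, RNF166 and RNF213, beside 45.0% of all windows, and the CCAAT box CCAAT in a window of RNF166, beside 34.6% of all. A pair of rarer palindromes are shown with their surroundings, 110 bases before to 20 after the start, motif in capitals. They are the E box CACGTG of RNF146 (chr6:127266754-127266883, plus strand), which began 27 bases before the start and occurred in 7.26% of all windows, and the cyclic AMP response element TGACGTCA of RNF166 (chr16:88706389-88706518, minus strand), which began 7 bases before the start and occurred in 1.85% of all.
RNF146: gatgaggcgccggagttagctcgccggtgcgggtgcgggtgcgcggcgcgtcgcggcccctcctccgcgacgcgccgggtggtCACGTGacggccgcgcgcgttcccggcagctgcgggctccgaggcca
RNF166: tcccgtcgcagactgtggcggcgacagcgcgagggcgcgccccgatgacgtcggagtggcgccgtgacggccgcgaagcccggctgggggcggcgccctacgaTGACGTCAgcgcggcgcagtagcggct
The window of RNF213 was 94.0% G and C, against a median of 58.7%, and no other window of the 35116 reached that share. These matches describe letters in a reference window and say nothing of binding.

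All 6 RNF genes were higher in ATRA-treated cells, by 2.32-fold to 3.50-fold, and none was lower. The authors' tests covered 12265 genes, of which 13.4% are listed in the table (adjusted p under 0.01) and 8.28% are listed as higher. The table used here does not show how many RNF genes were among those tested, so the share listed is not set against these. The study also describes a supplementary list of expression results per gene, which was not used here. Of the listed genes 61.8% were higher. The median log2 fold change of the 6 was 1.47, beside 1.87 for all higher genes, and each of the 6 lay below that median. In bulk RNA, more cells that express a gene cannot be told apart from more RNA per cell. Summed over the 6 genes, ATRA libraries held 18861 and 15929 normalised reads and control libraries 6885 and 6295, a ratio of 2.64, with no overlap between the groups. Non-overlap carries no information here, since all 1648 genes of the table show it.

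**Figure D1:**
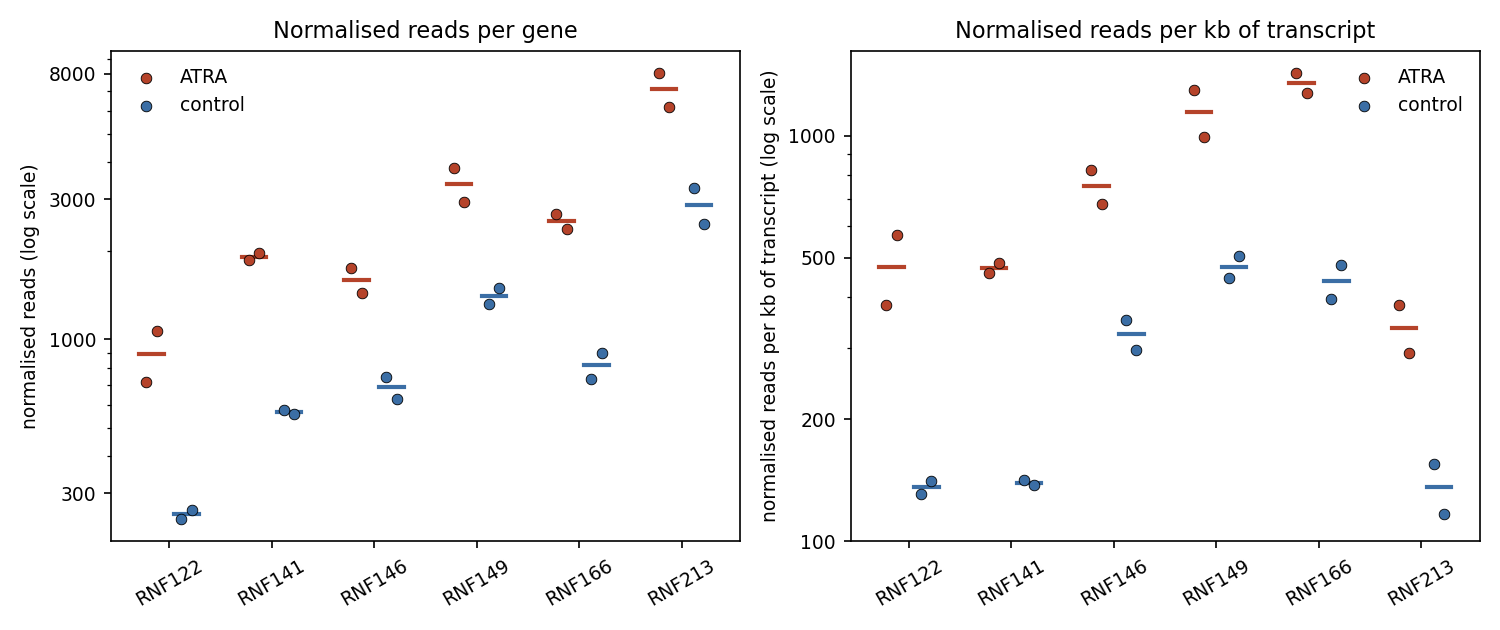
Normalised reads (left) and normalised reads per kb of transcript (right) of the 6 RNF genes on log axes. Each point is 1 library, ATRA left of control for each gene, and bars are means of 2 libraries. Every ATRA point lies above both control points of its gene, and RNF213 has the most reads per gene but the lowest mean per kb with ATRA.

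RNF122 and RNF149 encode membrane-anchored ligases. RNF122 is a small protein known to bind the calcium-modulating ligand CAML. It had 715 and 1064 normalised reads in ATRA libraries a and b, against 245 and 264 in control libraries a and b. The means were 889.6 ± 247 with ATRA and 254 ± 13.2 in controls (SD, n = 2 each), 3.50-fold higher, a log2 fold change of 1.81 with a standard error of 0.29. The ATRA libraries were 1.49 times apart, the widest gap of the 6 genes, while the controls were 1.08 times apart. RNF149, whose protein carries a protease-associated domain and is known as a ligase for the kinase BRAF, had 3835 and 2936 normalised reads with ATRA against 1319 and 1492 in controls. Its means were 3385 ± 636 with ATRA and 1405 ± 122 in controls (SD, n = 2 each), 2.41-fold higher (log2 1.27, SE 0.21). RNF122 spans 33405272 to 33424646 on the minus strand of chromosome 8 (GRCh37) with 6 exons, and RNF149 spans 101887681 to 101925163 on the minus strand of chromosome 2 with 7 exons. The small nucleolar RNA gene SNORD89 lies within RNF149 on the same strand and is not listed in the table.

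RNF141, first described in testis, gave the closest libraries of the 6 genes. It had 1855 and 1964 normalised reads in ATRA libraries, against 574 and 556 in control libraries. The means were 1909 ± 76.8 with ATRA and 565 ± 12.2 in controls (SD, n = 2 each), 3.38-fold higher (log2 1.76, SE 0.05). Any ATRA library over any control library gave a ratio between 3.23 and 3.53. The gene lies on the minus strand of chromosome 11, from 10533220 to 10562777, with 6 exons.

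RNF146, also called Iduna, recognises proteins that carry poly(ADP-ribose) through its WWE domain and marks tankyrase and axin for degradation. It had 1745 and 1442 normalised reads in ATRA libraries, against 746 and 627 in control libraries. The means were 1594 ± 214 with ATRA and 686 ± 84.1 in controls (SD, n = 2 each), 2.32-fold higher (log2 1.22, SE 0.19), the lowest fold of the 6. Library a was the higher one in both groups. The gene lies on the plus strand of chromosome 6, from 127587871 to 127609712, with 3 exons.

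RNF166 is known for its part in antibacterial autophagy and in antiviral signalling. It had 2664 and 2378 normalised reads in ATRA libraries, against 736 and 896 in control libraries. The means were 2521 ± 203 with ATRA and 816 ± 113 in controls (SD, n = 2 each), 3.09-fold higher (log2 1.63, SE 0.16). The higher library was a with ATRA and b in controls. The gene lies on the minus strand of chromosome 16, from 88762907 to 88772816, with 6 exons. A long noncoding RNA gene overlaps part of it on the opposite strand, from 88762909 to 88765018. Whether counting used strand is not stated, so reads of the pair may not be separable in the shared stretch.

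RNF213, or mysterin, is a giant ligase with an AAA+ ATPase core, known as the susceptibility gene of moyamoya disease, as interferon-inducible and as a ligase that coats the lipopolysaccharide of cytosolic bacteria. It had 8046 and 6145 normalised reads in ATRA libraries, against 3265 and 2460 in control libraries. The means were 7096 ± 1344 with ATRA and 2863 ± 569 in controls (SD, n = 2 each), 2.48-fold higher (log2 1.31, SE 0.28). Library a exceeded b by 1.31 times with ATRA and by 1.33 times in controls, and single ratios ran between 1.88 and 3.27. The gene lies on the plus strand of chromosome 17, from 78234651 to 78372594, with 68 exons. RNF213-AS1 and another noncoding gene overlap it on the opposite strand, and a further 2 genes, annotated as noncoding or of unsettled type, lie within it on the same strand. None of these is listed in the table, and their reads may not be separable from those of RNF213.

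RNF213 made up 40.8% of the summed reads of the 6 genes with ATRA and 43.4% in controls, but its transcript is 21079 bases long. Per kb of transcript, mean levels with ATRA were highest for RNF166 (1352), then RNF149 (1146), RNF146 (752), RNF122 (475), RNF141 (472) and RNF213 (337). The libraries of RNF166 and RNF149 overlapped on this scale, as did those of RNF122 and RNF141, while the other neighbours in the order were separated. In controls the mean levels per kb were 476 for RNF149, 438 for RNF166 and 324 for RNF146, followed by 139.6 for RNF141, 136 for RNF122 and 136 for RNF213. RNF149 and RNF166 overlapped in controls, and so did the last 3 genes. The per kb order of RNF149 and RNF166 therefore differed between the groups, but within the library spread in both.

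**Figure D2:**
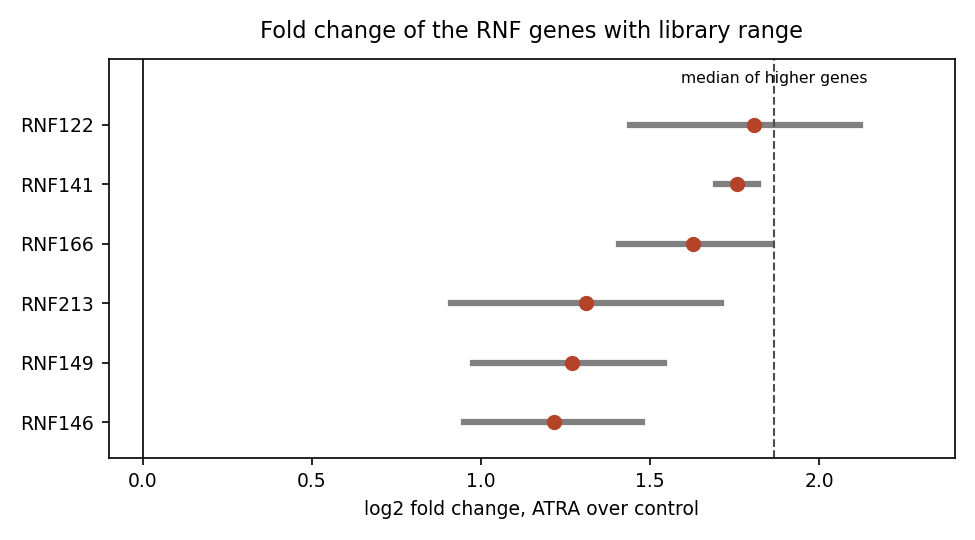
Log2 fold change of the RNF genes, ATRA over control. Points are ratios of the 2 group means, grey bars run from the lowest to the highest ratio of 1 ATRA to 1 control library, and the dashed line is the median of all higher genes (1.87). RNF141 has the narrowest bar, and its bar does not reach those of RNF146 and RNF149.

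The folds fell into a higher set, RNF122, RNF141 and RNF166 (3.09-fold to 3.50-fold), and a lower set, RNF146, RNF149 and RNF213 (2.32-fold to 2.48-fold). Between single libraries these sets overlapped. The range of RNF141 lay above those of RNF146 (1.93 to 2.78) and RNF149 (1.97 to 2.91), but the range of RNF122 (2.71 to 4.34) reached down to both. ATRA library a was the higher one for RNF146, RNF149, RNF166 and RNF213, and b for RNF122 and RNF141. Over all genes of the table library a was the higher ATRA library in 54.8%. When the libraries were scaled to equal totals over the table in place of the size factors, the median log2 fold change of all genes moved by -0.44 and the RNF genes stayed higher, with log2 fold changes between 0.77 and 1.37.

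A limma test on log2(normalised reads + 1) over the table called all 6 RNF genes at an adjusted p under 0.05. It called 100% of the 1648 genes, so this adds nothing about the RNF genes. An exact permutation test of 2 libraries against 2 cannot give a two-sided p below 0.333. The authors' listing therefore remains the only call used here.

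The RNF genes were also compared by their profiles over the 4 libraries. Distance was taken between log2 profiles, each centred on its own mean. Apart from the fold, such a distance holds only the gaps between the 2 libraries of a group, which may be technical. No background of distances over all genes was taken, so the order below is a description. The closest members were RNF146 and RNF213 (0.17) and the farthest RNF122 and RNF213 (0.90). Closest to RNF146 in the whole table were WAS, the actin regulator mutated in Wiskott-Aldrich syndrome (0.03), and CTBS, a lysosomal chitobiase (0.07). Closest to RNF149 were SLC2A3, a glucose transporter (0.06), and IL4R, the interleukin-4 receptor (0.10). RNF213 was nearest to MIDN (0.06) and DNAH1 (0.08), RNF166 to WSB1 (0.07) and the TGF-beta receptor TGFBR2 (0.08), and RNF141 to ALPK1, a kinase that senses a bacterial sugar (0.10), and HELZ2 (0.10). RNF122 had the most distant neighbours, ARHGAP26 (0.16) and CLIP2 (0.18).

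The other genes of the ubiquitin system were counted from lists taken by symbol. Of 514 coding genes on 6 lists, 28 (5.45%) are in the table, beside 7.45% of all coding symbols, which is the share to set beside each list that follows. Of the 28, 18 (64.3%) were higher and 10 lower, beside 61.8% of all listed genes higher, and their median log2 fold change was 1.29, beside 1.23 over the listed genes of any kind. Among other RING and related ligases 14 of 159 are listed, 10 higher and 4 lower. DTX4 (1285 and 1079 normalised reads with ATRA, 140 and 143 in controls, 8.35-fold higher) and DTX1 (4.16-fold higher) belong to the Deltex family, which acts on Notch. SH3RF1, a scaffold of JNK signalling, was 5.47-fold higher and DZIP3 4.18-fold higher. SIAH2, ZNRF3, MEX3A and TRIM65 were lower by 2.20-fold to 2.49-fold. The share of these 14 genes that was higher, 71.4%, stands beside 61.8% of all listed genes, and whether it differs from that of the RNF genes was not tested. RNFT1, whose symbol does not match the rule, had 1719 and 1462 normalised reads with ATRA against 693 and 755 in controls (2.20-fold higher).

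The steps before and after the ligases were counted in the same way. Of 43 E1 and E2 genes, 2 are listed and both were higher. UBA7, the E1 enzyme of the ubiquitin-like protein ISG15, had 1200 and 875 normalised reads with ATRA against 71.0 and 46.9 in controls (17.6-fold), and UBE2J1, an E2 of the endoplasmic reticulum, was 3.48-fold higher. Of 26 HECT ligases only HERC5, the main ligase for ISG15, is listed, with 52.8 and 44.9 normalised reads with ATRA against 460 and 567 in controls, 10.5-fold lower. Thus the E1 and the main E3 of ISG15 were listed in opposite directions. Of 76 deubiquitinases, CYLD (3.38-fold) and USP40 (2.16-fold) were higher, and USP13 (2.41-fold) and UCHL5 (1.92-fold) lower. Of 48 proteasome genes, taken as symbols PSMA to PSMG with a number, the assembly chaperones PSMG1 (2.66-fold) and PSMG3 (2.02-fold) were lower. No other gene of these 48 is listed.

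Cullin ligases and their substrate receptors gave the largest ratios, with 5 of 162 listed. ASB2, a cullin receptor known to be induced by retinoic acid in leukemia cells, had 13902 and 10835 normalised reads with ATRA against 71.0 and 36.9 in controls (229-fold higher). SOCS3, the suppressor of cytokine signalling, had 1957 reads with ATRA against 3 in controls, a ratio of 633 with a 95% interval of 204 to 2897 that covers counting error only. All 3 of those reads lay in control library a, and the ratio was 316 without control library b. KLHL22 was 75.0-fold higher on 4 control reads (48.4-fold without control library a and 167-fold without b), FBXL5 was 3.45-fold higher and DCAF4 3.16-fold lower.

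**Figure D3:**
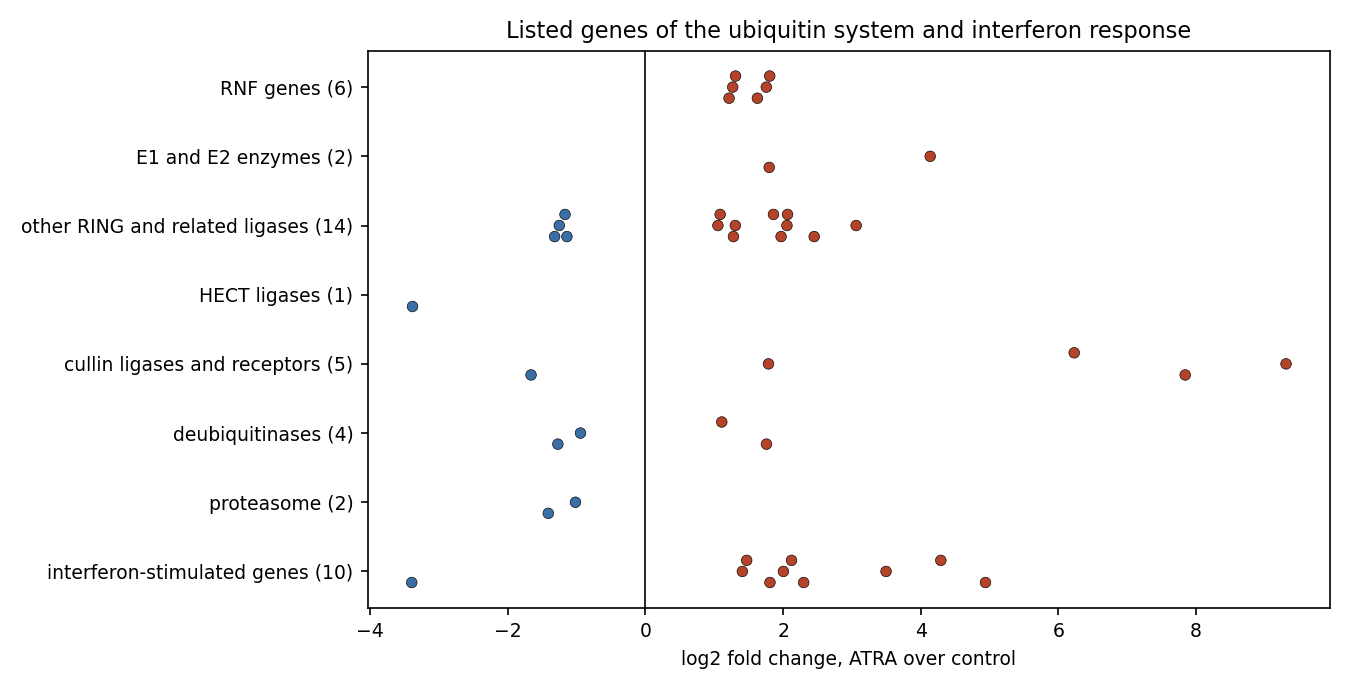
Log2 fold change, ATRA over control, of every listed gene of each group, with the number of genes in brackets. Red points are higher and blue points lower with ATRA, and points are shifted vertically for legibility. The 6 RNF genes lie between 1.22 and 1.81, while other RING ligases fall on both sides of 0.

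Known partners and substrates of the RNF proteins were looked up as a list of 13 genes, of which 3 are in the table. CAMLG, which encodes the CAML protein that RNF122 binds, had 501 and 386 normalised reads with ATRA against 1300 and 1570 in controls, 3.23-fold lower. PARP1, a main source of the poly(ADP-ribose) that RNF146 reads, had 7936 and 8874 with ATRA against 19617 and 14500.3 in controls, 2.03-fold lower. SH3BP2, an adaptor protein that tankyrase and RNF146 keep low, had 12152 and 11531 with ATRA against 3153 and 2588 in controls, 4.12-fold higher. These are RNA levels, and none of them measures binding or protein turnover.

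RNF213 is induced by interferon in other cells, so interferon-stimulated genes were listed beside it. Of 36 such genes 10 (27.8%) are in the table, beside 7.45% of all coding symbols. Of the 10, 9 (90.0%) were higher and 1 lower (HERC5), beside 61.8% of all listed genes higher. MX2 had 2222 and 2400 normalised reads with ATRA against 76.8 and 73.7 in controls (30.7-fold), OAS3 was 19.6-fold and IFI6 11.3-fold higher (22.2-fold without control library a). The transcription factors IRF7 (4.01-fold) and STAT2 (3.50-fold) were higher as well. The RNF213 fold of 2.48 was below each of the 9 higher genes, the lowest of which was SAMD9L at 2.65-fold.

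**Figure D4:**
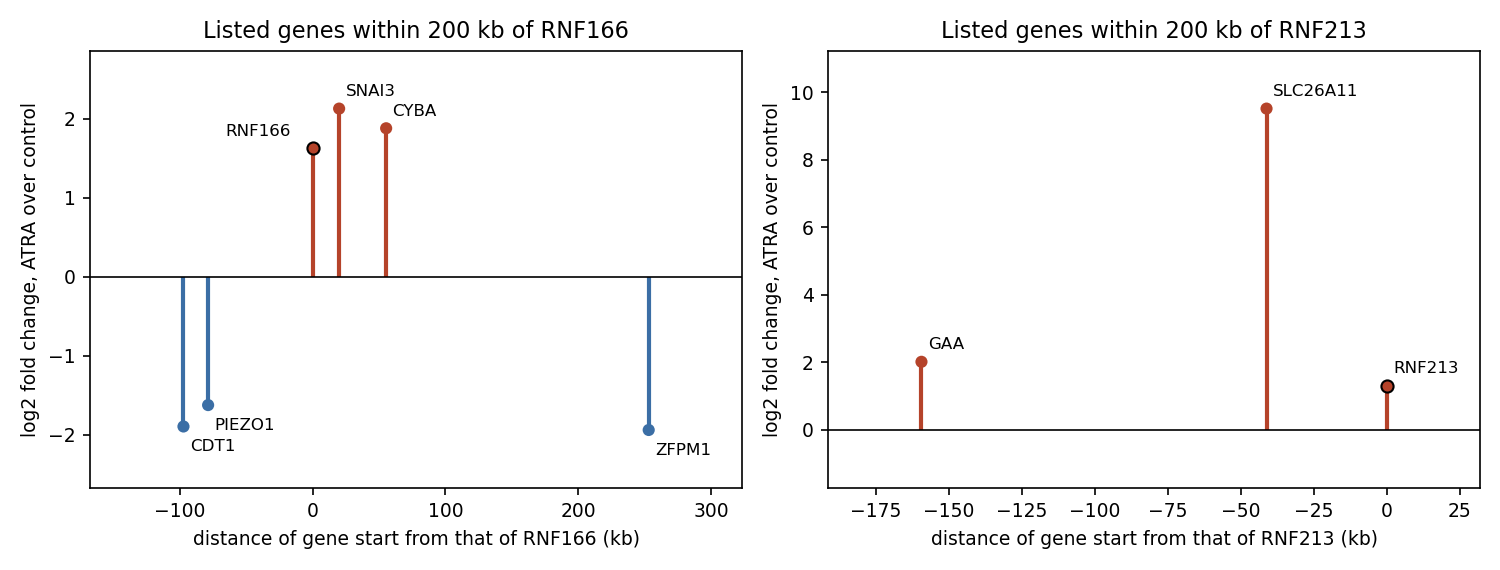
Listed genes within 200 kb of RNF166 (left) and RNF213 (right), with the distance between gene starts in kb along the direction of RNF transcription and the log2 fold change, ATRA over control. Black-edged points are the RNF genes, red is higher and blue lower with ATRA. RNF166 has listed neighbours in both directions, and the SLC26A11 value rests on 1 control read.

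The study concerned chromatin, so listed genes near the RNF genes were counted. RNF166 and RNF213 had another listed gene within 200 kb, which makes 2 of 6 RNF genes, beside 48.6% of the 1530 listed genes with a position. Around RNF166, 5 of 14 coding genes (35.7%) are listed, beside 7.45% of all coding symbols and 13.4% of the genes tested. SNAI3, a Snail-family repressor 9.99 kb away, was 4.37-fold higher and CYBA, the p22phox subunit of the NADPH oxidase 45.4 kb away, 3.68-fold higher. PIEZO1, a mechanosensitive channel gene 8.93 kb away, was 3.08-fold lower, with 2376 and 2864 normalised reads with ATRA against 9362 and 6786 in controls. The replication licensing gene CDT1, 97.4 kb away, was 3.72-fold lower, and ZFPM1, a cofactor of GATA factors 159 kb away, was 3.83-fold lower (6.70-fold without ATRA library a). RNF166 thus lay between higher genes on the one side and lower genes on the other, with ZFPM1 beyond the higher ones.

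Near RNF213, 2 of 10 coding genes are listed. The anion transporter gene SLC26A11 ends 7.35 kb before RNF213 begins, on the same strand. It had 871 reads with ATRA against 1 in controls, a ratio of 729 with a 95% counting interval of 143 to 31517, and its ATRA libraries were 2.27 times apart. The ratio was 446 without ATRA library a and 364 without control library a. GAA, the lysosomal acid alpha-glucosidase 141 kb away, was 4.05-fold higher. The other 4 RNF genes had no listed neighbour among 3 to 5 coding genes each.

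Among the markers checked, the 5 genes of ATRA-matured myeloid cells (ITGAM, ITGAX, CD38, CYBB and NCF1) were all higher, ITGAM with 12336 and 10166 normalised reads with ATRA against 268 and 177 in controls. None of 5 promyelocyte markers is listed, so their levels are not known here. The monocyte markers CSF1R and CD68 were higher, with CD14 and CD163 not listed, and of 4 lymphoid markers CD3E was higher and NKG7 lower. These markers moved with the same contrast as the RNF genes, and their part in the RNF values was not tested.

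The RING signature was also looked for in the other listed genes. Of 1478 listed genes with a translated protein, 27 (1.83%) held it, beside 1.43% of all translated coding genes. Of the 27, 18 (66.7%) were higher and 9 lower, beside 61.8% of all listed genes higher, and their median log2 fold change was 1.22. Outside the RNF genes it was held by 21, of which 12 were higher and 9 lower. The lower ones included LONRF1, LONRF2 and LONRF3 of the LON peptidase and RING finger family, at 2.24-fold, 10.3-fold (16.3-fold without ATRA library a) and 3.52-fold lower. They also included ZNF598, the ligase that marks stalled ribosomes, at 2.37-fold lower.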

How the data were processed

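Per the labels, poly(A) RNA of 2 ATRA-treated and 2 control HL-60 samples was sequenced. Per the study's methods and the submitters' notes on processing, adapters were trimmed by the authors with cutadapt, reads were quantified with RSEM 1.2.7 on hg19 (GRCh37), and DESeq2 1.4.5 was used to compare the groups. Whether counting used strand is not given in the sources used here. The deposited signal columns hold means of reads divided by size factors, overall and per group. The fold ratio, log2 fold change and p-value columns deposited by the authors hold their own comparison. Of these only the p-values were read, to find that the table holds the 1645 genes under an adjusted p of 0.01 of 12265 tested, and 3 others.

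Among 73360 digits of the means there were 0 zeros, so each digit 0 was taken as written as 1. Whole reads per library were restored as the pair of counts that, over size factors 1.10 and 1.00 (ATRA a and b) and 1.03 and 0.895 (control a and b), gives the group means and the overall mean within 3 units of the last digit. All 1648 rows had exactly 1 solution, and the method was tested on simulated data. The share of means that gave whole reads was 100%. Fold is the ratio of restored group means. The standard error beside its log2 comes from the SDs of the log2 library values and so belongs to a ratio of geometric means. The SDs given beside the means are of normalised reads. The name of 1 row had become a calendar date and is not used by name. Which gene it was is not known. The list of other RING ligases includes MARCH symbols with a number, which can read as dates. Its count of 14 may therefore be 1 too low.

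Positions, transcript lengths and coding sequences came from GENCODE 44 on GRCh37, and promoters from RefSeq on GRCh38. The planned RING search in RefSeq proteins was run on translated GENCODE coding sequences instead. Alternatives were printed means, equal totals, a pseudocount of 1, geometric means, leaving out each library, a minimum mean of 100 normalised reads, a log2 fold change over 0.9, other distances and limma 3.58.1. Named were all RNF genes, up to 4 listed genes per list by absolute log2 fold change, the 2 nearest profiles per RNF gene and every listed gene within 200 kb. SIAH2, ZNRF3, MEX3A, TRIM65, DCAF4, IRF7, STAT2, SAMD9L, RNFT1, ZNF598 and the LONRF genes were named after their values were seen. The RING coding sequence of RNF213 is not reported here. The members and lists were chosen with earlier results of these data known.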

Additional observations from a re-analysis of the deposited data

How the results depend on the processing

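Across 48 recalculations of the 6 RNF log2 fold changes, 42 moved by less than the spread between libraries and 0 changed sign. Leaving out 1 of 2 libraries at these gaps moves a fold by less than that spread in any case. It cannot change a sign either, since the libraries of all 1648 genes do not overlap between groups. A pseudocount of 1 and geometric means can hardly move genes at these levels and gaps, and printed means differ only by the digit fault. The count of 42 is therefore no measure of robustness. The 6 that moved were those with libraries scaled to equal totals over the table: RNF122 1.37, RNF141 1.32, RNF146 0.77, RNF149 0.83, RNF166 1.19 and RNF213 0.87. That scaling left the share of higher genes at 61.8%, and it assumes that the listed genes, most of them higher, sum to the same total in each library. Without 1 library at a time the log2 fold change ran from 1.49 to 2.06 for RNF122, 1.71 to 1.80 for RNF141, 1.07 to 1.35 for RNF146, 1.06 to 1.45 for RNF149, 1.49 to 1.78 for RNF166 and 1.10 to 1.53 for RNF213. The count of 6 higher and 0 lower RNF genes was the same with a log2 fold change over 0.9, with limma and without each library. The limit of 0.9 was applied under the size factors only. Under equal totals RNF146 (0.77), RNF149 (0.83) and RNF213 (0.87) lay below it. Limma called all 1648 genes of the table, and no gene of the table can change direction without 1 library. Neither of these checks therefore adds anything about the RNF genes. With at least 100 normalised reads on average, 17 ubiquitin genes were higher and 10 lower. The count of 2 RNF genes with a listed neighbour was the same at 100, 200 and 500 kb, beside 37.2%, 48.6% and 68.2% of listed genes. No paired analysis was possible because the restored libraries carry no replicate number.

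With 2 libraries in a group, spread is poorly known. The table holds only genes that passed the authors' limit, which favours large differences and hides RNF genes that did not pass. Levels of genes that are not listed cannot be read from the table used here. The library values, group means and folds depend on the reading of the digit fault. As printed by the authors, the ATRA mean is 7196 for RNF213 (7096 restored) and 1919 for RNF141 (1909 restored). The printed control mean of RNF149 is 1415 (1405 restored). The log2 fold changes from printed means are 1.33, 1.76 and 1.26 for these genes.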
